A study of Mus musculus with 16 samples.

Results

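The trunk of mouse embryos without a working endothelin receptor B gene was compared with the trunk of embryos that carried it. Bulk RNA was sequenced from the trunk region of Ednrb+/+ embryos (WT here) and Ednrb-/- embryos at E11.5, a stage given in days after conception, with 4 libraries of each genotype. These 8 libraries were all the trunk libraries among 16 in the series. The other 8 were the caudal regions of the same genotypes and age, 4 and 4, used here only to show where the trunk differed. The labels call the libraries of a group biological replicates. The strain, the allele, the part of Ednrb that was altered and the number of embryos per library stand in none of the sources used here, nor do the embryos' sexes, litters or somite counts. P-values therefore measure the spread between these libraries, whatever its source. The question behind the series is what the tissue around pigment cells contributes to the placing of spots in mice lacking Ednrb.

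Ednrb is a G-protein-coupled receptor for endothelins on migrating neural crest cells. Its ligand endothelin 3, cut to its active form by the enzyme Ece1, comes from the tissues the crest crosses. Without this signal few melanoblasts, the precursors of pigment cells, reach the skin, and enteric neurons fail to fill the distal gut. At midgestation melanoblasts are a small minority of trunk cells, and a piece of trunk also holds spinal cord, somites, mesenchyme, vessels, blood and surface ectoderm. In such bulk libraries fewer cells of a type and less RNA per cell cannot be told apart.

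Of 56748 genes in the deposited table, 17205 reached 0.5 FPKM (fragments scaled to gene length and library total) in at least 4 of the 16 libraries and were tested, 13365 of them protein-coding. Values below are FPKM in replicate order. A log2 change is the Ednrb-/- minus the WT mean of log2(FPKM + 0.5) ± SE, and a gene is said to have risen or fallen only at a limma adjusted p under 0.05 (Benjamini-Hochberg over all 17205 genes). The trunk libraries held 34883821 to 43444905 reads in listed genes. The first principal component of the 8 libraries, with 39.3% of the variance, placed WT between -21.9 and -16.7 and Ednrb-/- between 16.3 and 24.9. Xist RNA was high, at 135 to 148 FPKM, in WT trunk replicates 1 and 4 and Ednrb-/- trunk replicate 2. Ednrb-/- trunk replicate 3 held both Xist, at 9.92 FPKM, and the Y-linked Ddx3y, at 17.8 FPKM, so it stood apart in this respect. Genes that mark an embryonic trunk were present in both genotypes, among them Pax3 (8.20 FPKM on average in WT and 9.98 FPKM in Ednrb-/-), Meox1 (23.7 and 43.4 FPKM), Pax1 (13.3 and 15.2 FPKM) and Hoxc8 (61.0 and 54.7 FPKM), whereas Hoxa13, a gene of the tail end, averaged 0.0164 and 0.0103 FPKM.

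The trunk without Ednrb differed from the WT trunk in many genes by small amounts. In the trunk 4321 genes were called, 25.1% of those tested, of which 2092 rose (12.2%) and 2229 fell (13.0%). Only 54 rose and 133 fell by at least 2-fold (1.09% of tested genes), whereas 1720 called genes changed by less than 1.2-fold. These folds are on the log2(FPKM + 0.5) scale, which understates those of low genes, and 3387 tested genes averaged under 1 FPKM over the 16 libraries. The median change of all tested genes was 0.004 (log2), with the 5th percentile at -0.52 and the 95th at 0.37. In 4833 genes (28.1%) the 4 Ednrb-/- libraries lay wholly above or wholly below the 4 WT libraries. Among the largest rises of protein-coding genes were those of Igdcc3, Arg1, Lin28a, Hmx1, Atoh1, Myf6 and Prtg, and among the largest falls those of Ednrb, Hbb-bs, Ogn, Egfl6, Pirt, Npy and Matn4. With each library scaled to its own listed reads, 1642 genes rose and 2726 fell in place of 2092 and 2229, so the balance of rises and falls rests on the scaling. Without Ednrb-/- trunk replicate 3 and the 2 caudal libraries that likewise held both Xist and Ddx3y, 3596 genes were called, 1672 higher and 1924 lower, and with a term for high Xist 4039 were called.

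**Figure D1:**
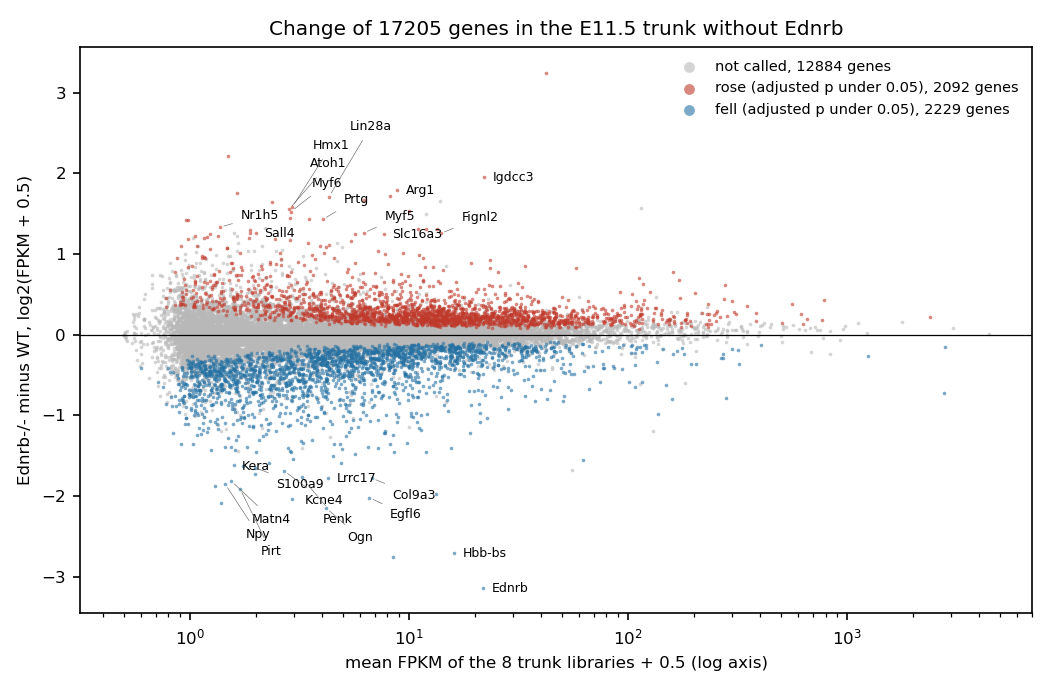
Change in the trunk of each of the 17205 tested genes (vertical axis, Ednrb-/- minus WT on the log2(FPKM + 0.5) scale) against its mean FPKM over the 8 trunk libraries plus 0.5 (log axis). Most of the red points (2092 genes that rose) and blue points (2229 that fell) lie close to 0, grey points were not called, and Ednrb is the lowest.

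Ednrb itself, on chromosome 14 from 104052061 to 104081838 (minus strand, mm39), was measured at 35.8, 37.0, 41.8 and 40.2 FPKM in the WT libraries and 3.87, 3.89, 4.80 and 3.37 FPKM in the Ednrb-/- libraries. The groups did not overlap. The gene fell by 3.13 ± 0.16 (limma adjusted p = 4.6e-08), beside a caudal log2 change of -3.49 ± 0.16 (difference between the regions 0.36 ± 0.22, limma adjusted p = 0.35). Reads left over Ednrb cannot be placed within the gene. Of its neighbours on chromosome 14, Kctd12 fell by 0.56 ± 0.08 and Rbm26 rose by 0.22 ± 0.03 (limma adjusted p = 2.0e-04 and 3.6e-04), while Slain1 and Pou4f1, the tested genes next to Ednrb on either side, were not called (limma adjusted p = 0.22 and 0.38). These neighbours were looked up for their position and not by the rule for named genes.

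Of the 7 listed genes of the endothelin system, 5 were tested, and among the other 4 the ligand fell and the enzyme rose. Edn3, the main ligand of Ednrb, was at 4.76, 4.13, 3.73 and 4.61 FPKM in the WT libraries and 3.22, 2.92, 3.44 and 3.06 FPKM in the Ednrb-/- libraries, groups that did not overlap, and fell by 0.39 ± 0.09 (limma adjusted p = 0.0052). Ece1, which processes endothelin precursors, rose by 0.29 ± 0.07 (limma adjusted p = 0.011), from 10.7 to 13.2 FPKM. Ednra, the sister receptor of mesenchyme and vessels, averaged 12.6 ± 1.35 FPKM in WT and 12.9 ± 1.27 FPKM in Ednrb-/- trunk (SD, n = 4) with a log2 difference of 0.03 ± 0.13, and Edn1, the ligand of Ednra, had a difference of 0.30 ± 0.20. Neither passed the test. Ece2, below the filter, was at 0.351, 0.344, 0.435 and 0.349 FPKM in the WT libraries and 0.213, 0.279, 0.221 and 0.238 FPKM in the Ednrb-/- libraries, lower in all 4 Ednrb-/- libraries (two-sided exact permutation test, p = 0.029, the smallest that 70 assignments allow, and 0.071 adjusted over the 10 low genes so tested).

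Genes of melanoblasts, the pigment cell precursors, were low in both genotypes. Of 17 listed genes 8 passed the filter, of which 0 rose, 4 fell and 4 did not pass the test (median -0.28, log2, beside 0.004 for all genes). Pmel, a structural protein of pigment granules, was at 0.522, 0.870, 0.693 and 0.512 FPKM in the WT libraries and 0.176, 0.137, 0.0749 and 0.141 FPKM in the Ednrb-/- libraries, and fell by 0.85 ± 0.13 (limma adjusted p = 3.2e-04). Its Ednrb-/- values were all below its WT values but not 0. Mitf, the transcription factor that specifies the lineage, fell by 0.34 ± 0.09 (limma adjusted p = 0.012), from 0.720 to 0.460 FPKM. Dct, a melanin-synthesis enzyme and an early melanoblast marker, stood at 0.556, 0.695, 0.445 and 0.207 FPKM in the WT libraries and 0.285, 0.179, 0.183 and 0.135 FPKM in the Ednrb-/- libraries, groups that overlapped through WT replicate 4. It fell by 0.47 ± 0.15 (limma adjusted p = 0.036). Gpnmb, a granule protein shared with macrophages, fell by 0.41 ± 0.12 (limma adjusted p = 0.022). Without WT trunk replicate 2 the calls of Dct and Gpnmb were lost (limma adjusted p = 0.12 and 0.077), as they were without the libraries holding both Xist and Ddx3y (0.077 and 0.061), which leaves 2 falls. The call of Dct was also lost without WT trunk replicate 1 or 3 or Ednrb-/- trunk replicate 2, 3 or 4 (0.061 to 0.091). Kit, the receptor that melanoblasts share with mast and germ cells, had a log2 difference of 0.01 ± 0.06, and Slc24a5, Rab27a and Rab38, which serve pigment granules of many cells, lay between -0.21 and -0.02. None of these 4 passed.

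Under the filter, Tyr, the rate-limiting enzyme of melanin synthesis, was at 0.0915, 0.0636, 0.0820 and 0.0635 FPKM in the WT libraries and 0.00667, 0, 0.0276 and 0.00697 FPKM in the Ednrb-/- libraries. Slc45a2 and Mlph, which serve pigment granules, were likewise lower in every Ednrb-/- library. For Tyr, Slc45a2 and Mlph the two-sided exact permutation p was 0.029, the smallest the design allows, and 0.071 after adjustment, so none passed. Mlana, Oca2, Trpm1, Mc1r and Gpr143 gave exact p-values from 0.23 to 1. The summed FPKM of the 17 genes was 11.7 to 13.6 FPKM in the WT libraries and 9.77 to 11.51 FPKM in the Ednrb-/- libraries, ranges that did not overlap. Most of this sum came from Kit, Rab27a, Slc24a5 and Rab38, at 3.67, 2.69, 1.885 and 1.74 FPKM on average in WT. Since other cells also make these, the sum is no measure of melanoblasts alone.

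Crest-derived glia and Schwann cell precursors are the cells from which many trunk melanoblasts arise. Of 20 of their genes that were tested, Ednrb among them, 1 rose, 14 fell and 5 did not pass the test (median -0.38). Cdh19, a cadherin of Schwann precursors, was at 2.25, 2.28, 2.14 and 2.18 FPKM in the WT libraries and 1.05, 1.00, 1.21 and 0.817 FPKM in the Ednrb-/- libraries, and fell by 0.84 ± 0.11 (limma adjusted p = 1.4e-04). Its groups did not overlap. Erbb3, the neuregulin receptor of the same cells, fell by 0.40 ± 0.06 (limma adjusted p = 1.7e-04), and Gfra3, a receptor for artemin, by 0.54 ± 0.08 (limma adjusted p = 2.0e-04). Postn, which fell by 1.22 ± 0.16 (limma adjusted p = 1.4e-04), is also made by mesenchyme. The summed level of the list was 397 to 488 FPKM in the WT libraries and 269.9 to 298 FPKM in the Ednrb-/- libraries. Part of this sum was Ednrb, the altered gene, at 38.7 FPKM on average in WT and 3.98 FPKM in Ednrb-/-. Postn, at 26.1 and 10.96 FPKM, was another part.

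All 30 listed genes that guide or feed melanoblasts were tested, of which 4 rose, 5 fell and 21 did not pass the test, a share of 30% that is near the 25.1% of all genes. The falls numbered 3 without Ednrb-/- trunk replicate 2 and the rises 7 without WT caudal replicate 4, which enters through the shared estimate of the spread. Kitl, the survival factor for Kit-bearing melanoblasts, was at 7.47, 7.44, 6.21 and 6.92 FPKM in the WT libraries and 9.06, 9.37, 8.57 and 8.56 FPKM in the Ednrb-/- libraries and rose by 0.33 ± 0.06 (limma adjusted p = 0.0017). Cxcl12, a chemokine that attracts Cxcr4-bearing cells, stood at 34.2, 34.4, 31.4 and 31.4 FPKM in the WT libraries and 44.8, 44.5, 45.4 and 40.9 FPKM in the Ednrb-/- libraries, and rose by 0.41 ± 0.06 (limma adjusted p = 3.1e-04). Slit2, a repellent for Robo receptors, rose by 0.36 ± 0.07 (limma adjusted p = 0.0022), from 7.06 to 9.22 FPKM. Each of these ligands was higher in all 4 Ednrb-/- libraries, as were 6 of the 30 listed genes and 13.9% of all tested genes.

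Receptors of Slit2 fell. Robo2 was at 4.49, 4.65, 4.80 and 4.87 FPKM in the WT libraries and 2.42, 2.19, 2.46 and 2.10 FPKM in the Ednrb-/- libraries and fell by 0.90 ± 0.10 (limma adjusted p = 3.4e-05), Robo1 fell by 0.32 ± 0.07 (limma adjusted p = 0.0033), and the versican-cleaving protease Adamts9, needed for melanoblast spread in the mouse, fell by 0.53 ± 0.11 (limma adjusted p = 0.0037). Cxcr4 (log2 difference 0.23 ± 0.09), Met (0.29 ± 0.10), the receptor of Hgf, Wnt1 (0.40 ± 0.14), a dorsal neural tube signal that induces melanoblasts, Vcan (-0.09 ± 0.08), Adamts20 (0.09 ± 0.08) and Epha4 (-0.19 ± 0.07) did not pass. Cxcl12, Slit2 and Robo2 also differed from their caudal changes, which were -0.12 ± 0.06, -0.22 ± 0.07 and 0.08 ± 0.10 (limma adjusted p for the difference 0.0049, 0.0062 and 0.0025). For Kitl the difference between the regions was 0.12 ± 0.09 (limma adjusted p = 0.45).

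**Figure D2:**
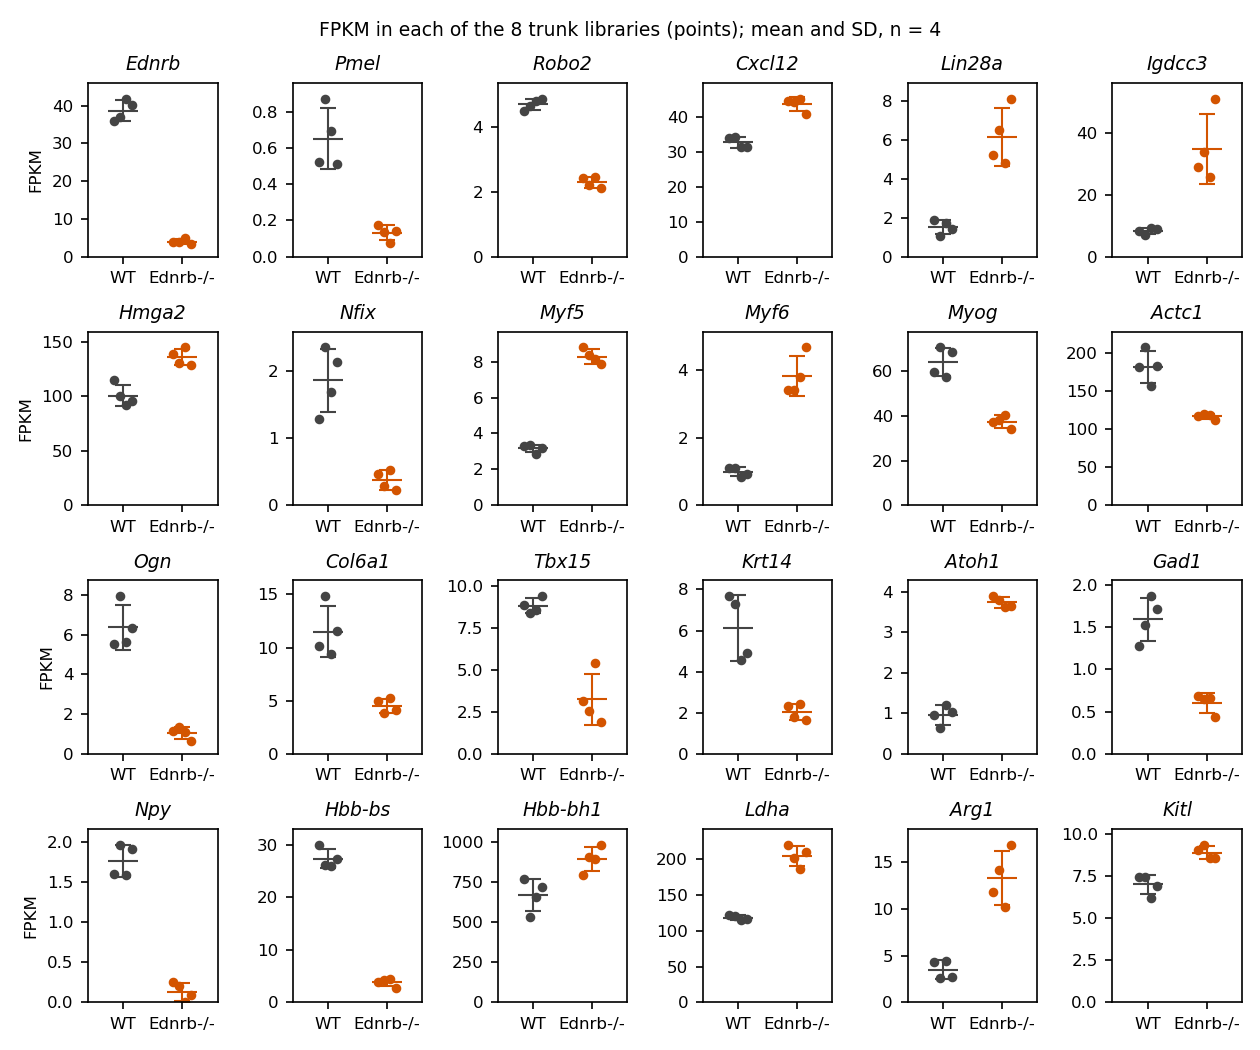
FPKM of 24 genes in each of the 8 trunk libraries (points), with mean and SD of the 4 WT (dark grey) and 4 Ednrb-/- libraries (orange), each panel on its own linear axis from 0. In every panel the 2 groups are apart, with Ednrb, Pmel, Robo2, Nfix, Myog and the matrix genes lower and Cxcl12, Kitl, Lin28a, Myf5, Atoh1 and Ldha higher in Ednrb-/- trunk.

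Lin28a, Lin28b and several genes known as targets of the microRNA let-7 rose, Igdcc3, Lin28a, Prtg, Sall4 and Trim71 by more than 2-fold. Lin28 proteins bind the let-7 precursor and block its maturation, and mature let-7 represses mRNAs that carry matches to its seed, Lin28a and Lin28b among them. Both Lin28 genes are known to decline through midgestation, while nuclear factor I genes come on later. Mature let-7 was not measured here, and no let-7 gene passed the filter. All 9 mouse let-7 family members found in the RefSeq table (GRCm38.p6), miR-98 included, share the seed GAGGUAG at bases 2 to 8. Of these, 3 are printed 5′ to 3′ with the seed in capitals, to be read against the sites that follow.
let-7a-5p: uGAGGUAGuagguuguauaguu
let-7g-5p: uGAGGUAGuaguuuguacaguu
miR-98-5p: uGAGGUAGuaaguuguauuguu

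The 3′ untranslated regions of the list's genes were searched for CTACCTCA, the sequence that pairs with bases 2 to 8 of let-7 followed by A (sense strand, longest annotated region per gene, GENCODE M21 on GRCm38). Of the 17 members that rose 12 held it, of the 6 that fell 1 did (Igdcc4), and of the 2 not called 0. Several members were listed because they are known let-7 targets, so this count is no independent finding. Among all 13241 tested protein-coding genes with such a region, 3.65% held the sequence, 5.33% of those that rose and 3.52% of those that fell, with median lengths of 1360 and 1300 bases. The first site of each of the 6 members with the largest rises among those that hold one is shown with the 14 bases before it, the match to let-7 in capitals, GRCm38.
Igdcc3 (chr9:65185708-65185729, plus strand): gtgactctcagcacCTACCTCA
Lin28a (chr4:134005189-134005210, minus strand): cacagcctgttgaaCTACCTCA
Prtg (chr9:72912559-72912580, plus strand): cctctgctgaatagCTACCTCA
Sall4 (chr2:168748940-168748961, minus strand): gggctttaatttatCTACCTCA
Trim71 (chr9:114512472-114512493, minus strand): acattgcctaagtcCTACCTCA
Lin28b (chr10:45381022-45381043, minus strand): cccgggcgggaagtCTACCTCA

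Lin28a, on chromosome 4 from 133730641 to 133746152 (mm39), was at 1.88, 1.05, 1.71 and 1.43 FPKM in the WT libraries and 5.21, 6.49, 4.78 and 8.11 FPKM in the Ednrb-/- libraries, and rose by 1.71 ± 0.24 (limma adjusted p = 1.9e-04). Every Ednrb-/- library was above every WT library. Lin28b was at 3.90, 3.05, 3.73 and 3.37 FPKM in the WT libraries and 6.20, 7.29, 6.32 and 7.86 FPKM in the Ednrb-/- libraries and rose by 0.89 ± 0.13 (limma adjusted p = 1.9e-04). Igdcc3, an immunoglobulin-domain receptor of the early embryo, stood at 8.35, 6.92, 9.13 and 9.00 FPKM in the WT libraries and 28.99, 33.9, 25.7 and 51.2 FPKM in the Ednrb-/- libraries, with Ednrb-/- replicate 4 highest, and rose by 1.96 ± 0.19 (limma adjusted p = 1.5e-05). It lies beside Igdcc4 on chromosome 9 (Igdcc3 from 65048471 to 65093154, Igdcc4 from 65008768 to 65045222, mm39). Igdcc4 went the other way and fell by 0.42 ± 0.10 (limma adjusted p = 0.0058). Prtg, their paralogue protogenin, rose by 1.43 ± 0.13 (limma adjusted p = 1.1e-05), from 1.68 to 5.43 FPKM.

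Of the 25 genes of this list, all tested, 17 rose, 6 fell and 2 did not pass the test (median 0.46). The share called was 92%, beside 25.1% of all genes. Members and lists were chosen with earlier results of these data known, so this count is no independent finding. In each of the 23 called genes the 2 groups did not overlap, which was so in 28.1% of all tested genes. The calls rest on the same trunk values, so this separation adds no independent support. The RNA-binding proteins Igf2bp1, Igf2bp2 and Igf2bp3 rose by 0.61 ± 0.08, 0.38 ± 0.05 and 0.34 ± 0.05 (limma adjusted p = 7.8e-05, 2.1e-04 and 1.9e-04). The chromatin proteins Hmga1 and Hmga2 were abundant, and Hmga2 was at 115, 100.2, 92.1 and 95.8 FPKM in the WT libraries and 139, 131, 145 and 128 FPKM in the Ednrb-/- libraries. Hmga1, which has a near-identical copy and is uncertain for that reason, rose by 0.62 ± 0.09 (limma adjusted p = 1.9e-04) and Hmga2 by 0.43 ± 0.08 (limma adjusted p = 9.4e-04). Trim71, a repressor of mRNAs in early embryos, rose by 1.17 ± 0.13 (limma adjusted p = 4.7e-05), Sall4, a zinc-finger factor of pluripotent and early embryonic cells, by 1.26 ± 0.17 (limma adjusted p = 1.6e-04), and Dusp9, a MAP kinase phosphatase, by 0.99 ± 0.15 (limma adjusted p = 3.9e-04). Among smaller rises were those of Arid3a (0.66), Nr6a1 (0.59), Arid3b (0.57), Mycn (0.46) and E2f5 (0.34).

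Nuclear factor I genes, which promote glial and muscle maturation later in development, all fell. Nfix was at 1.29, 2.35, 1.68 and 2.12 FPKM in the WT libraries and 0.471, 0.287, 0.521 and 0.223 FPKM in the Ednrb-/- libraries and fell by 1.42 ± 0.18 (limma adjusted p = 1.1e-04). Nfib fell by 0.64 ± 0.14 (limma adjusted p = 0.0034) and Nfia by 0.60 ± 0.15 (limma adjusted p = 0.0097). Nfic fell by 0.35 ± 0.10 (limma adjusted p = 0.021), a call lost without WT trunk replicate 2 or 4 or Ednrb-/- trunk replicate 2 (limma adjusted p = 0.063, 0.051 and 0.067). Hopx, a homeodomain protein without DNA binding that marks maturing progenitors, fell by 1.59 ± 0.14 (limma adjusted p = 6.2e-06), from 2.95 to 0.642 FPKM, and by more than in the caudal region (difference -1.35 ± 0.19, limma adjusted p = 0.0025). Zbtb20 and Fzd5 did not pass. In the trunk the summed FPKM of the list was 364 to 386 FPKM in the WT libraries and 522 to 580.4 FPKM in the Ednrb-/- libraries. A large part of this sum came from Hmga1, at 91.5 FPKM on average in WT and 141.5 FPKM in Ednrb-/-, and Hmga2, at 100.7 and 135.9 FPKM. The sum also holds the list's genes that fell, so it is no measure of the rising genes alone.

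Genes of DNA replication and mitosis were modestly higher. Of 39 listed genes, 30 rose, 0 fell and 9 did not pass the test (median 0.23), and the summed FPKM was 1486 to 1623 FPKM in the WT libraries and 1787 to 1912 FPKM in the Ednrb-/- libraries. Mki67, a protein of dividing cells, was at 77.5, 69.9, 74.4 and 71.8 FPKM in the WT libraries and 87.1, 85.4, 89.0 and 89.1 FPKM in the Ednrb-/- libraries and rose by 0.25 ± 0.03 (limma adjusted p = 9.8e-05). Rrm1 and Rrm2, the subunits of ribonucleotide reductase, rose by 0.30 ± 0.05 and 0.41 ± 0.07, and Ccnd2, a cyclin of the G1 phase, by 0.42 ± 0.06 (limma adjusted p = 9.4e-04, 9.1e-04 and 1.1e-04). No member fell, and at most 1 did under any alternative. The rises numbered 23 to 32 over all alternatives.

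Promoters of such genes often carry sites for E2F factors, which switch on S-phase genes. RefSeq promoters (GRCm38.p6, 250 bases before to 50 after each start) were searched on both strands for TTTCCCGC and TTTGGCGC. Of the 25 list members that rose and have a promoter in the table, 7 held at least 1 of them, and of the 6 not called 0. The share was 22.6% among all 31 list members with a promoter, 3.33% among 10522 tested protein-coding genes and 1.56% among all 32851 promoters of the table. Replication genes are known for such sites, so the higher share of the list is no independent finding. The 6 members not called are too few for a contrast with those that rose. A match is a run of letters, not a measured binding site. The upstream 250 bases are printed for 3 subunits of the MCM helicase, which unwinds DNA at replication forks, with matches in capitals. They are the members that rose and held a match there with the smallest adjusted p, chosen after their values were seen.
Mcm7 (chr5:138171884-138172133, minus strand): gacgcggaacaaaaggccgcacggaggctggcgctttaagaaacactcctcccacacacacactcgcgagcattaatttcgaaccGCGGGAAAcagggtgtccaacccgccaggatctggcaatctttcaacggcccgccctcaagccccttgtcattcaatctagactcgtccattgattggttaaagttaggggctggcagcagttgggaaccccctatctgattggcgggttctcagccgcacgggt
Mcm5 (chr8:75109259-75109508, plus strand): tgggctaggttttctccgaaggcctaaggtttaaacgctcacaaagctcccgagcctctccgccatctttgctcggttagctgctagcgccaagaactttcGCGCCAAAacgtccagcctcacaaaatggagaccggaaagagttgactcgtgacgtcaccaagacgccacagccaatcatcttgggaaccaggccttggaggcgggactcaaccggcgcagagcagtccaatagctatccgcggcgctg
Mcm6 (chr1:128359706-128359955, minus strand): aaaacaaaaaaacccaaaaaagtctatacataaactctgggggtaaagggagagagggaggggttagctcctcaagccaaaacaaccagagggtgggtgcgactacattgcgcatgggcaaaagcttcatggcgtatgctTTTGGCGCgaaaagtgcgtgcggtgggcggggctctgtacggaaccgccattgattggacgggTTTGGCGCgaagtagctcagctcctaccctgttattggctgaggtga
These 3 genes rose by 0.34, 0.31 and 0.20 on the log2 scale (limma adjusted p = 0.0015, 0.0055 and 0.0062), for Mcm7, Mcm5 and Mcm6 in that order.

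Many glycolytic enzymes rose. Of 34 listed genes of glycolysis and the hypoxia response, 17 rose, 4 fell and 13 did not pass the test (median 0.28). Ldha, which turns pyruvate into lactate, was at 122, 121, 114 and 116 FPKM in the WT libraries and 219.7, 201, 186 and 209.6 FPKM in the Ednrb-/- libraries, and rose by 0.78 ± 0.08 (limma adjusted p = 3.3e-05). Slc16a3, a lactate exporter, rose by 1.25 ± 0.12 (limma adjusted p = 1.2e-05), from 4.07 to 10.4 FPKM. The enolase Eno1 rose by 0.67 ± 0.06, the kinases Pgk1 and Pfkl by 0.52 ± 0.06 and 0.56 ± 0.07, and Mif, a cytokine, by 0.62 ± 0.06 (limma adjusted p = 1.1e-05, 5.5e-05, 7.9e-05 and 8.8e-06). Arg1, which splits arginine to urea and ornithine, stood at 4.27, 2.58, 4.43 and 2.70 FPKM in the WT libraries and 11.8, 14.2, 10.2 and 16.9 FPKM in the Ednrb-/- libraries and rose by 1.79 ± 0.17 (limma adjusted p = 1.2e-05). Of 18 arginase, urea and polyamine genes 7 rose, 3 fell and 8 did not pass the test (median 0.02), a share called of 55.6% beside 25.1% of all genes. Odc1 was up by 0.37 ± 0.07 (limma adjusted p = 0.0013) and Sms by 0.27 ± 0.06 (limma adjusted p = 0.0038). The falls, in Arg2, Smox and Azin2, named here because they are few, numbered 0 without WT trunk replicate 2, 1 without WT trunk replicate 3 or Ednrb-/- trunk replicate 1, 3 or 4, and 5 when libraries were scaled to their listed reads.

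In muscle Myf5 and Myf6 rose, while Myog and most genes of contraction fell. Myf5 and Myf6 are neighbours on chromosome 10 (Myf5 from 107318769 to 107321995, Myf6 from 107328714 to 107330598, mm39), and both encode factors that commit somite cells to muscle. Myf5 was at 3.27, 3.35, 2.86 and 3.19 FPKM in the WT libraries and 8.79, 8.36, 8.13 and 7.84 FPKM in the Ednrb-/- libraries, and rose by 1.26 ± 0.12 (limma adjusted p = 1.5e-05). Myf6 stood at 1.11, 1.09, 0.839 and 0.929 FPKM in the WT libraries and 3.40, 3.41, 3.81 and 4.67 FPKM in the Ednrb-/- libraries and rose by 1.53 ± 0.15 (limma adjusted p = 1.6e-05). Both differed from the caudal region, where the log2 changes were -0.31 ± 0.12 and -0.24 ± 0.15 (difference 1.57 ± 0.17, limma adjusted p = 4.2e-04, and 1.77 ± 0.21, limma adjusted p = 8.4e-04).

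Myog, the factor that starts fusion and contraction genes, was at 59.8, 70.8, 57.7 and 68.7 FPKM in the WT libraries and 37.2, 38.4, 40.6 and 34.02 FPKM in the Ednrb-/- libraries, and fell by 0.76 ± 0.10 (limma adjusted p = 7.8e-05). Mymx, a membrane peptide of myoblast fusion, fell by 1.36 ± 0.16 (limma adjusted p = 5.3e-05), Msc, a basic helix-loop-helix factor of muscle precursors, by 1.26 ± 0.16 (limma adjusted p = 1.0e-04), and Lbx1, which marks migrating limb muscle precursors and dorsal spinal neurons, by 1.06 ± 0.13 (limma adjusted p = 6.2e-05). Over the 24 regulators 8 rose, 9 fell and 7 did not pass the test (70.8% called, beside 25.1% of all genes). Genes of the sarcomere and contraction fell more evenly, since of 27 tested 1 rose, 17 fell and 9 did not pass the test (median -0.44). Actc1, cardiac actin and the main actin of embryonic muscle, stood at 181, 207, 156 and 183 FPKM in the WT libraries and 117, 119.9, 118 and 113 FPKM in the Ednrb-/- libraries and fell by 0.63 ± 0.07 (limma adjusted p = 4.0e-05). Myh8 fell by 1.05 ± 0.12 (limma adjusted p = 5.6e-05), Musk, a receptor of the neuromuscular junction, by 1.02 ± 0.13 (limma adjusted p = 1.1e-04), and the acetylcholine receptor subunit Chrna1 by 0.78 ± 0.11 (limma adjusted p = 1.4e-04). The summed level of the contraction list was 580.5 to 714 FPKM in the WT libraries and 438 to 456 FPKM in the Ednrb-/- libraries.

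Most tested small proteoglycans, collagens and matricellular genes of the extracellular matrix fell. Small leucine-rich proteoglycans bind collagen fibrils, and of 15 listed 9 were tested, of which 0 rose, 7 fell and 2 did not pass the test (median -0.93). Ogn was at 5.56, 7.95, 5.64 and 6.31 FPKM in the WT libraries and 1.13, 1.35, 1.119 and 0.637 FPKM in the Ednrb-/- libraries, and fell by 2.15 ± 0.16 (limma adjusted p = 2.5e-06). Kera, at 1.92, 2.45, 1.34 and 1.85 FPKM in the WT libraries and 0.353, 0.175, 0.559 and 0.0652 FPKM in the Ednrb-/- libraries, fell by 1.62 ± 0.18 (limma adjusted p = 4.0e-05) beside a caudal change of -0.15 ± 0.18. In the caudal region Kera averaged 0.0656 FPKM in WT and 0.00614 FPKM in Ednrb-/-, both far under the pseudocount, so the caudal change on this scale could only be small. Fmod fell by 1.09 ± 0.12 (limma adjusted p = 3.4e-05), Dcn by 1.04 ± 0.16 (limma adjusted p = 3.6e-04) and Bgn by 0.62 ± 0.08 (limma adjusted p = 9.0e-05). The summed FPKM of the list was 72.9 to 89.2 FPKM in the WT libraries and at most 44.4 FPKM in the Ednrb-/- libraries, with replicate 4 lowest.

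Of 25 collagen genes tested, 3 rose, 17 fell and 5 did not pass the test (median -0.59). The 3 chains of collagen VI, a microfibril around muscle and nerve, fell together: Col6a1 by 1.24 ± 0.15, Col6a2 by 1.16 ± 0.15 and Col6a3 by 1.21 ± 0.16 (limma adjusted p = 6.1e-05, 1.2e-04 and 1.5e-04). Col6a1 was at 10.1, 14.8, 9.43 and 11.53 FPKM in the WT libraries and 5.00, 3.88, 5.21 and 4.09 FPKM in the Ednrb-/- libraries. Col16a1 and Col14a1, which sit on fibril surfaces, fell by 1.31 ± 0.15 and 0.97 ± 0.11 (limma adjusted p = 5.3e-05 and 5.0e-05). The 3 that rose were Col18a1, Col13a1 and Col4a6, named here because they are few. They rose by 0.51, 0.57 and 0.24 on the log2 scale. All of them are basement membrane or transmembrane collagens and not fibril formers.

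Among 35 tested matricellular, elastic-fibre and adhesion genes 0 rose, 22 fell and 13 did not pass the test (median -0.38). Egfl6, an adhesive protein of somite and skin mesenchyme, was at 9.83, 11.9, 9.36 and 9.20 FPKM in the WT libraries and 2.86, 2.03, 2.25 and 1.45 FPKM in the Ednrb-/- libraries, and fell by 2.02 ± 0.20 (limma adjusted p = 1.5e-05). Tnc, which borders crest migration paths, fell by 1.34 ± 0.15 (limma adjusted p = 4.6e-05), elastin (Eln) by 1.11 ± 0.13 (limma adjusted p = 6.5e-05), Thbs2 by 1.09 ± 0.13 (limma adjusted p = 5.8e-05) and Sparc, a collagen-binding protein, by 0.64 ± 0.07 (limma adjusted p = 2.2e-05). Smoc2, a calcium-binding matrix protein, fell by 1.59 ± 0.19 (limma adjusted p = 5.6e-05), beside a caudal change of -0.32 ± 0.19 (difference -1.27 ± 0.27, limma adjusted p = 0.014). In contrast, of the laminins and other basement membrane genes 4 rose, 5 fell and 7 did not pass the test, a share called of 56.25% beside 25.1% of all genes. Lama1, the laminin chain of early embryos, rose by 0.42 ± 0.09 (limma adjusted p = 0.0045), whereas Lama4, that of vessels and muscle, fell by 0.75 ± 0.09 (limma adjusted p = 5.4e-05). The falls in the basement membrane list numbered only 2 without WT trunk replicate 2 and 3 without Ednrb-/- trunk replicate 1 or 2.

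Cartilage and dermis genes fell more often than they rose. Of 26 tested sclerotome, tendon and cartilage genes 5 rose, 11 fell and 10 did not pass the test (61.5% called, beside 25.1% of all genes). Matn4, a cartilage matrix protein, was at 1.18, 2.77, 1.68 and 2.08 FPKM in the WT libraries and 0.160, 0.193, 0.266 and 0.0766 FPKM in the Ednrb-/- libraries, and fell by 1.81 ± 0.23 (limma adjusted p = 7.8e-05). The collagen IX chain Col9a3 fell by 1.78 ± 0.21 (limma adjusted p = 6.5e-05) and Col9a2 by 1.45 ± 0.14 (limma adjusted p = 1.7e-05), and the tendon protein Tnmd fell by 0.83 ± 0.13 (limma adjusted p = 3.8e-04). Hapln1, which links hyaluronan to proteoglycan, went up by 1.01 ± 0.11 (limma adjusted p = 2.6e-05).

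In dermis and subepidermal mesenchyme 2 rose, 7 fell and 8 did not pass the test, of 17 tested (52.9% called). Tbx15, which shapes dorsal and ventral pigment fields of the mouse coat, was at 8.85, 8.37, 8.57 and 9.38 FPKM in the WT libraries and 3.16, 2.52, 5.39 and 1.92 FPKM in the Ednrb-/- libraries, with Ednrb-/- replicate 3 the highest of its group, and fell by 1.39 ± 0.31 (limma adjusted p = 0.0047). Dkk2, a Wnt inhibitor, fell by 1.21 ± 0.17 (limma adjusted p = 1.8e-04), Wnt11 by 0.77 ± 0.13 (limma adjusted p = 7.1e-04) and Twist2 by 0.41 ± 0.11 (limma adjusted p = 0.013), while Lef1, a Wnt effector, rose by 0.54 ± 0.10 (limma adjusted p = 0.0013). Of 23 surface ectoderm and keratin genes 3 rose, 5 fell and 15 did not pass the test (median 0.06), a share called of 34.8% beside 25.1% of all genes. Krt14, a keratin of basal epidermis, was at 7.68, 7.29, 4.58 and 4.90 FPKM in the WT libraries and 2.32, 1.79, 2.44 and 1.66 FPKM in the Ednrb-/- libraries, and fell by 1.35 ± 0.24 (limma adjusted p = 9.5e-04), with Krt5 (-1.15), Krt15 (-1.42) and Krt17 (-1.10) also down, whereas Krt8, of simple epithelia, rose by 0.53 ± 0.14 (limma adjusted p = 0.012) and Krt18 by 0.61 ± 0.14 (limma adjusted p = 0.0051). Trp63, the master factor of epidermis, averaged 1.73 FPKM in WT and 1.68 FPKM in Ednrb-/- (log2 difference -0.02). It and Col18a1, Col13a1 and Col4a6 are outside the rule for named genes and were chosen after their values were seen.

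**Figure D3:**
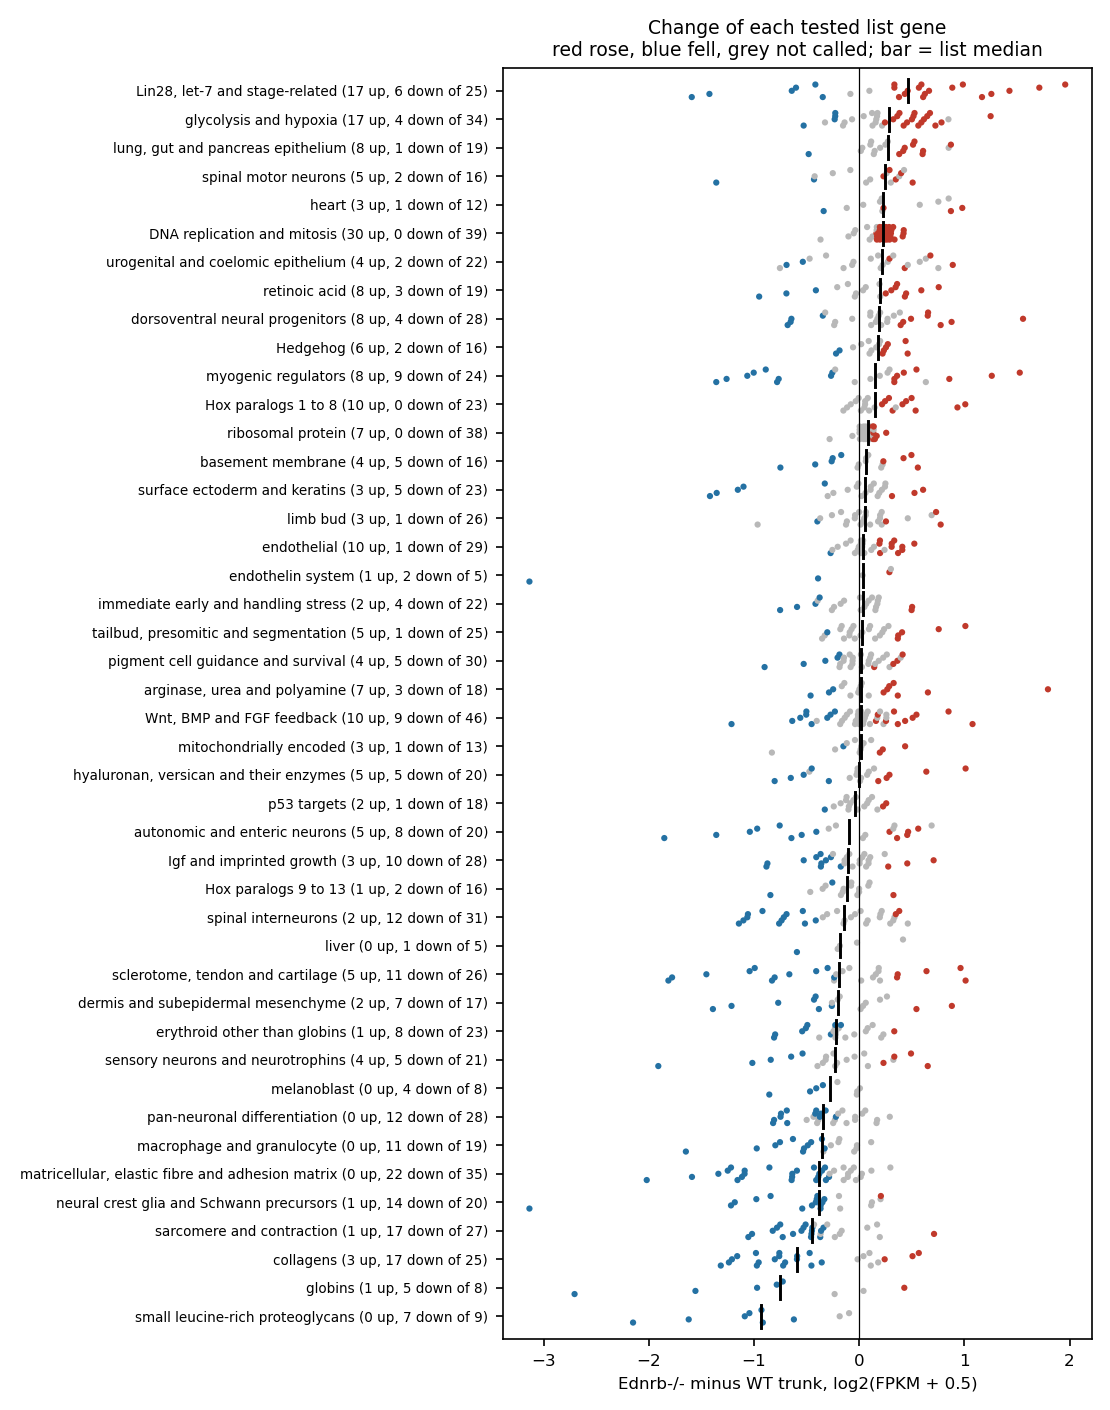
Log2 change in the trunk (horizontal axis, Ednrb-/- minus WT, log2(FPKM + 0.5)) of every tested gene of each of the 44 lists, in order of list median (black bar), with the number up, down and tested after each name. Red points rose, blue points fell and grey points were not called, the Lin28 list lies highest, and small leucine-rich proteoglycans, globins and collagens lie lowest. Members and lists were chosen with earlier results of these data known.

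Neuron genes were listed by class of spinal cord and crest neuron. Among dorsoventral progenitor genes 8 rose, 4 fell and 16 did not pass the test, of 28 (42.9% called, beside 25.1% of all genes). Atoh1, which specifies the most dorsal interneurons, was at 0.957, 0.627, 1.199 and 1.04 FPKM in the WT libraries and 3.90, 3.79, 3.62 and 3.66 FPKM in the Ednrb-/- libraries, and rose by 1.56 ± 0.18 (limma adjusted p = 5.3e-05). Its caudal change was -0.0031 ± 0.18 (difference 1.56 ± 0.26, limma adjusted p = 0.0049). Olig3, of the dorsal progenitors, rose by 0.88 ± 0.15 (limma adjusted p = 8.3e-04), Neurog1, of sensory and dorsal progenitors, by 0.65 ± 0.12 (limma adjusted p = 0.0012), and Msx1, a BMP target of the roof plate, by 0.78 ± 0.13 (limma adjusted p = 8.3e-04). Lmx1a, of the roof plate, fell by 0.68 ± 0.10 (limma adjusted p = 1.9e-04). Without Ednrb-/- trunk replicate 4 the progenitor rises numbered 5.

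Interneuron genes fell more often than they rose. Of 31 tested 2 rose, 12 fell and 17 did not pass the test (median -0.15), a share called of 45.2% beside 25.1% of all genes. Gad1 and Gad2, the enzymes that make the inhibitory transmitter GABA, fell by 0.92 ± 0.16 (limma adjusted p = 8.3e-04) and 1.10 ± 0.19 (limma adjusted p = 7.6e-04). Gad1 was at 1.28, 1.52, 1.87 and 1.71 FPKM in the WT libraries and 0.689, 0.646, 0.661 and 0.431 FPKM in the Ednrb-/- libraries. Slc32a1, which loads GABA into vesicles, fell by 1.06 ± 0.20 (limma adjusted p = 0.0013), and Pax2 and Pax8, factors of inhibitory interneurons, by 0.69 ± 0.13 and 0.54 ± 0.10 (limma adjusted p = 0.0019 and 0.0019). Among 16 motor neuron genes 5 rose, 2 fell and 9 did not pass the test, the rises including Foxp1 (0.40 ± 0.05) and Etv4 (0.51 ± 0.07), which set motor pools. That count of rises was 2 without Ednrb-/- trunk replicate 4 and 3 without WT trunk replicate 1 or 2 or Ednrb-/- trunk replicate 1. The share called in the motor neuron list was 43.8%, beside 25.1% of all genes.

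Of 28 genes that most neurons switch on, 0 rose, 12 fell and 16 did not pass the test (median -0.34), a share called of 42.9% beside 25.1% of all genes. Stmn3, a microtubule regulator of neurites, fell by 0.69 ± 0.18 (limma adjusted p = 0.012), Gap43, of growth cones, by 0.42 ± 0.10 (limma adjusted p = 0.0085), and Syt1, of synaptic vesicles, by 0.75 ± 0.16 (limma adjusted p = 0.0038). The falls numbered 5 without WT trunk replicate 3 and 7 without WT trunk replicate 4 or Ednrb-/- trunk replicate 4. In 18 of the 28 the trunk change differed from the caudal change, whose median was -1.14. Summed over the list, FPKM was 1052 to 1349 FPKM in the WT libraries and 927 to 1056 FPKM in the Ednrb-/- libraries, ranges that overlapped.

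Autonomic and sensory neuron genes held some of the largest falls. Npy, a peptide of sympathetic neurons, was at 1.61, 1.97, 1.59 and 1.91 FPKM in the WT libraries and 0.251, 0.202, 0 and 0.0876 FPKM in the Ednrb-/- libraries, and fell by 1.85 ± 0.16 (limma adjusted p = 6.2e-06). Ednrb-/- replicate 3 was listed at 0. Prph, an intermediate filament of peripheral and motor neurons, fell by 1.36 ± 0.24 (limma adjusted p = 8.5e-04), and Gfra2 and Gfra1, receptors for neurturin and GDNF, by 0.97 ± 0.13 and 0.55 ± 0.08 (limma adjusted p = 1.4e-04 and 1.6e-04). In the autonomic list 5 rose, 8 fell and 7 did not pass the test, of 20 (65% called, beside 25.1% of all genes). The rises numbered 3 without WT trunk replicate 4 or Ednrb-/- trunk replicate 1 or 4. Of 21 sensory genes 4 rose, 5 fell and 12 did not pass the test (42.9% called, beside 25.1% of all genes). Pirt, a membrane protein of pain-sensing neurons, was at 1.56, 2.79, 2.28 and 2.09 FPKM in the WT libraries and 0.260, 0.136, 0.409 and 0.0590 FPKM in the Ednrb-/- libraries, and fell by 1.91 ± 0.20 (limma adjusted p = 2.2e-05). Scn9a, a sodium channel of the same cells, fell by 1.01 ± 0.16 (limma adjusted p = 4.5e-04), and Runx3, of proprioceptive neurons, by 0.84 ± 0.13 (limma adjusted p = 4.3e-04). Among the other large changes, Hmx1, a homeobox gene of sensory ganglia and the eye, rose by 1.58 ± 0.22 (limma adjusted p = 1.6e-04), and Penk, an opioid peptide precursor of neurons and mesenchyme, fell by 1.77 ± 0.13 (limma adjusted p = 2.5e-06).

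Of 8 globin genes 1 rose, 5 fell and 2 did not pass the test (median -0.75). Hbb-bs, an adult beta globin, was at 30.1, 26.2, 26.0 and 27.3 FPKM in the WT libraries and 3.83, 4.24, 4.41 and 2.81 FPKM in the Ednrb-/- libraries, and fell by 2.71 ± 0.21 (limma adjusted p = 3.3e-06). Hbb-bt fell by 1.56 ± 0.25 (limma adjusted p = 4.1e-04) and Hba-a1, adult alpha globin, by 0.78 ± 0.15 (limma adjusted p = 0.0018), and the embryonic Hbb-y fell by 0.73 ± 0.14 (limma adjusted p = 0.002), from a mean of 3470.0 to 2088 FPKM. Hbb-bh1, a beta globin of the earliest red cells and the 1 that rose, was at 768, 534, 658 and 718 FPKM in the WT libraries and 799, 907, 895 and 985 FPKM in the Ednrb-/- libraries, up by 0.43 ± 0.12 (limma adjusted p = 0.017). That call was lost without WT trunk replicate 2 (limma adjusted p = 0.058) or Ednrb-/- trunk replicate 4 (0.054). Near-identical globin copies share reads, and no source used here says how such reads were counted. Hemoglobin genes took 0.345% to 0.456% of listed reads in WT and 0.257% to 0.290% in Ednrb-/- libraries. Outside the globins 1 rose, 8 fell and 14 did not pass the test, of 23 erythroid genes, with Trim10 (-0.80), Kel (-0.81) and Slc4a1 (-0.54) down and Tfrc, the transferrin receptor, up by 0.33. The share called of these 23 was 39.1%, beside 25.1% of all genes.

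Of 19 macrophage and granulocyte genes 0 rose, 11 fell and 8 did not pass the test (median -0.35), a share called of 57.9% beside 25.1% of all genes. The granulocyte protein S100a9 fell by 1.65 ± 0.29 (limma adjusted p = 9.1e-04), the complement gene C1qa by 0.80 ± 0.20 (limma adjusted p = 0.0098) and Mrc1, the mannose receptor of tissue macrophages, by 0.63 ± 0.08 (limma adjusted p = 1.3e-04). Their summed FPKM was 49.4 to 63.5 FPKM in the WT libraries and 38.4 to 46.1 FPKM in the Ednrb-/- libraries. Gpnmb and Postn, among the pigment and glia genes above, are also made by such cells or by mesenchyme, and the part of those cells in their falls was not tested. Of 29 endothelial genes 10 rose, 1 fell and 18 did not pass the test, with Nr2f2, of veins, up by 0.52 ± 0.07 and Flt1, a VEGF receptor, by 0.41 ± 0.06 (limma adjusted p = 1.9e-04 and 3.5e-04). The median of that list was 0.04, beside 0.004 for all genes, and its share called was 37.9%, beside 25.1%.

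**Figure D4:**
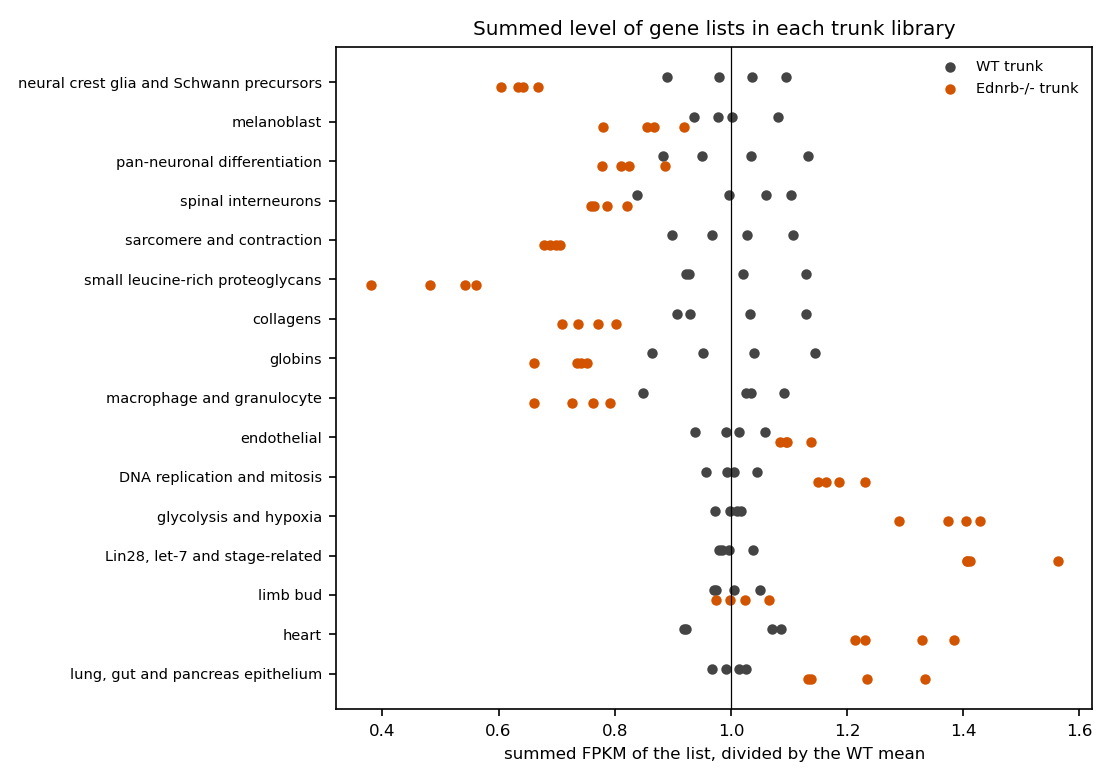
Summed FPKM of 16 gene lists in each trunk library, divided by the mean of the 4 WT libraries (horizontal axis), with WT in dark grey and Ednrb-/- in orange. The Ednrb-/- libraries lie at 0.38 to 0.562 for small leucine-rich proteoglycans, at 0.678 to 0.707 for sarcomere genes, at 1.15 to 1.23 for replication genes and at 1.29 to 1.43 for glycolysis, while those of the limb bud list (0.975 to 1.07) overlap WT.

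Hox genes set position along the body axis. Of 23 Hox genes of paralog groups 1 to 8, 10 rose, 0 fell and 13 did not pass the test, and of 16 of groups 9 to 13, 1 rose, 2 fell and 13 did not pass the test, shares called of 43.5% and 18.8% beside 25.1% of all genes. Hoxb1, a retinoic acid target, rose by 1.01 ± 0.11 (limma adjusted p = 4.1e-05) and Hoxd1 by 0.93 ± 0.10 (limma adjusted p = 4.0e-05). The 10 rises became 6 when libraries were scaled to their listed reads or without WT trunk replicate 4, and 5 without WT trunk replicate 2 or Ednrb-/- trunk replicate 4. In the retinoic acid list 8 rose, 3 fell and 8 did not pass the test, of 19 (57.9% called). Cyp26a1, which degrades the acid, was up by 0.76 ± 0.15 and the receptor Rxrg down by 0.95 ± 0.18 (limma adjusted p = 0.0022 and 0.0018). Without WT trunk replicate 2 the rises numbered 5. Of 12 heart genes 3 rose, 1 fell and 8 did not pass the test (1 rose without Ednrb-/- trunk replicate 4), a share called of 33.3% beside 25.1% of all genes. The summed level of that list was 36.1 to 42.6 FPKM in the WT libraries and 47.6 to 54.3 FPKM in the Ednrb-/- libraries. Of 19 lung, gut and pancreas genes 8 rose, 1 fell and 10 did not pass the test (47.4% called), with a sum of 74.4 to 78.9 FPKM in the WT libraries and 87.1 to 103 FPKM in the Ednrb-/- libraries, and the rises numbered 2 to 5 without WT trunk replicate 2, 3 or 4 or Ednrb-/- trunk replicate 3 or 4. Of 26 limb bud genes 3 rose, 1 fell and 22 did not pass the test, a share called of 15.4% beside 25.1% of all genes.

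The change of the trunk was set against that of the caudal region by an interaction test, with the regions taken as separate samples because the sources used here do not tie them to embryos. Within the caudal region 41.6% of genes were called. The interaction test called 1163 genes (6.76%), 650 with a more positive and 513 with a more negative change in the trunk, and 413 of them were also called within the trunk. That count was lower, 585 to 673, without WT trunk replicate 1, Ednrb-/- trunk replicate 1 or 3, WT caudal replicate 1 or Ednrb-/- caudal replicate 2 or 4 (648, 606, 672, 670, 673 and 585 in that order). Among the largest differences were those of Rgs4, a G-protein regulator (1.98 ± 0.35, limma adjusted p = 0.007), and Kcnmb2, a potassium channel subunit (1.89 ± 0.29, limma adjusted p = 0.0032), neither called within the trunk itself. The hindlimb gene Tbx4 differed by -2.15 ± 0.49 (limma adjusted p = 0.019, and 0.12 with voom on whole reads) and was near 0 in the trunk, at 0.910, 0.219, 0.140 and 0.113 FPKM in the WT libraries and 0.188, 0.243, 0.202 and 0.284 FPKM in the Ednrb-/- libraries. Hmx1, Atoh1, Myf5 and Myf6 rose in the trunk with caudal changes of 0.13 ± 0.22, -0.0031 ± 0.18, -0.31 ± 0.12 and -0.24 ± 0.15. The log2 change of Pmel, by contrast, was smaller in the trunk than in the caudal region (difference 1.07 ± 0.18, limma adjusted p = 0.0055). That call was lost at a pseudocount of 0.1 and with voom (limma adjusted p = 0.13 and 0.62). Its mean went from 0.649 to 0.132 FPKM in the trunk and from 3.61 to 0.594 FPKM in the caudal region. The trunk levels lie near or under the pseudocount, where a change on this scale is understated.

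**Figure D5:**
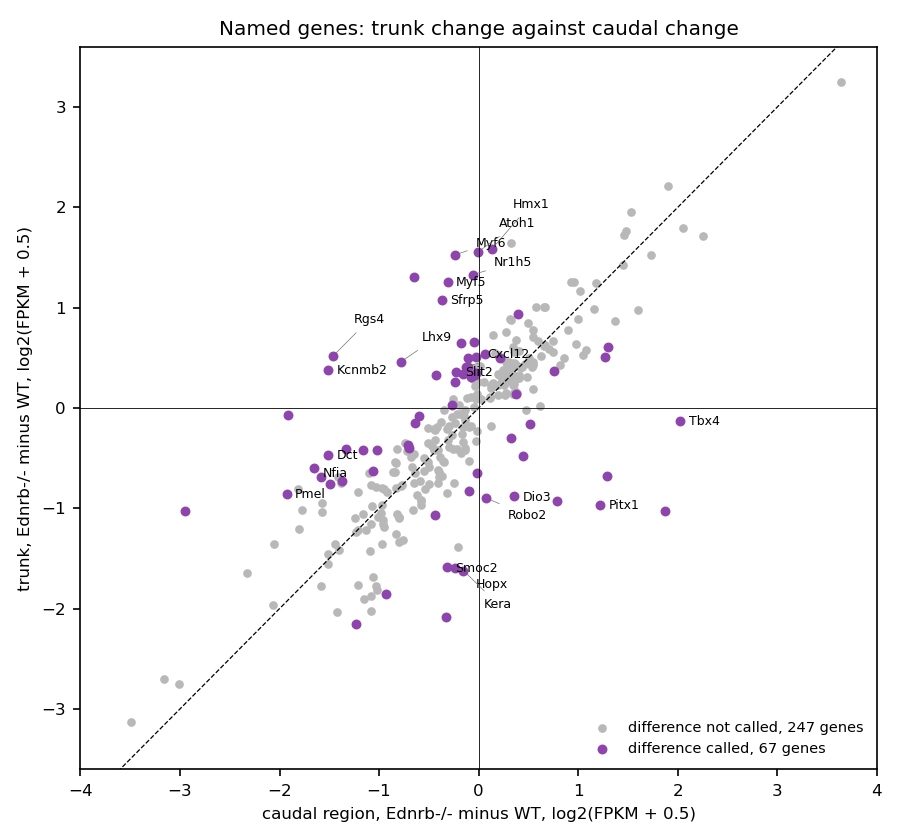
Log2 change in the trunk (vertical axis) against that in the caudal region (horizontal axis), Ednrb-/- minus WT on the log2(FPKM + 0.5) scale, for the 314 genes taken by the rule for named genes. Purple points are the 67 whose trunk and caudal changes differed, grey points the other 247, the dashed line marks equal change, and Myf5, Myf6, Atoh1 and Hmx1 lie high near 0 on the caudal axis, and Kera, Hopx and Smoc2 lie low there.

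Outside protein-coding genes the largest rise was that of Gm8730, a processed pseudogene on chromosome 8 from 103591477 to 103592430 (mm39), at 6.52, 8.31, 8.55 and 6.34 FPKM in the WT libraries and 59.7, 68.1, 104 and 71.2 FPKM in the Ednrb-/- libraries. It rose by 3.25 ± 0.18 (limma adjusted p = 1.0e-07). The lncRNA Gm47101 was listed at 0 in all 4 WT libraries and at 1.03, 3.11, 1.25 and 2.52 FPKM in the Ednrb-/- libraries. The lncRNA Gm17750 fell by 2.03 ± 0.20 (limma adjusted p = 1.5e-05), from 4.19 to 0.645 FPKM. The pseudogene Mid1-ps1 on chromosome Y from 90764326 to 90774754 was at 22.6, 26.9, 6.13 and 3.04 FPKM in the WT libraries and 0.778, 2.72, 0.963 and 0.695 FPKM in the Ednrb-/- libraries. WT replicate 1 was among its highest libraries, though Xist was at 144.8 FPKM there. With voom on whole reads Mid1-ps1 did not pass (limma adjusted p = 0.055). Reads of processed pseudogenes cannot be told with certainty from those of their parent genes here.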

How the data were processed

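RNA-seq libraries of 16 samples were compared, 8 of them from the trunk. Per the submitters' processing notes, the authors' tools were featureCounts 1.5.0-p3, HISAT2 2.0.5 and fastp without a stated version, and the build was mm39. Per the file headers, the deposited table gives FPKM per gene, normalized by the authors for gene length and library. No source used here states whether counting used strand or how reads with several matches were counted, so overlapping, antisense and near-identical genes are uncertain. The protocols name TRIzol and standard Illumina libraries.

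Genes at 0.5 FPKM or more in at least 4 of 16 libraries were tested with limma 3.58.1 (R 4.3.3) on log2(FPKM + 0.5), with 1 mean per group over all 16 libraries, a trended prior variance, Benjamini-Hochberg adjustment and a threshold of 0.05. A fold change on this scale understates that of low genes. For 10 pigment and endothelin genes under the filter a two-sided exact permutation test was used. FPKM times gene length gave whole reads for 100% of values within 0.01 of a read, and voom on them called 4714 genes. The steps were tested on simulated data. Figures were drawn with matplotlib 3.10.9.

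Named genes were Ednrb, the 14 largest rises and falls of protein-coding genes (mean of 1 FPKM or more in a trunk group), the 4 largest each way of other biotypes, all endothelin, melanoblast, guidance and Lin28 list members, up to 6 of each other list by adjusted p, and the 6 largest differences from the caudal region each way. Members and lists were chosen with earlier results of these data known. Replicate numbers were not taken as pairs of genotypes, since same-numbered WT and Ednrb-/- trunk libraries did not deviate together (r from -0.0836 to -0.00237). Whether same-numbered trunk and caudal libraries of a genotype deviate together was not tested. A few named genes are not reported here.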

Additional observations from a re-analysis of the deposited data

Results flagged for a closer look

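In 28 of 322 groups of 4 trunk libraries, over 161 genes named in the text under the rule for named genes, 1 library stood far from the other 3 by Dixon's gap test at its 95% critical value. Chance flags about 1 in 20 groups. In WT trunk replicate 1 these were Slc16a3 (4.50 FPKM, highest), Robo1 (12.7 FPKM, lowest), Pax8 (1.47 FPKM, lowest), Odc1 (88.6 FPKM, highest), Lef1 (1.91 FPKM, highest), Rgs4 (8.72 FPKM, lowest) and Tbx4 (0.910 FPKM, highest). WT trunk replicate 2 stood apart for Nfib (11.3 FPKM, highest) and Sms (16.0 FPKM, lowest), WT trunk replicate 3 for Mitf (0.885 FPKM, highest) and WT trunk replicate 4 for Slc24a5 (2.18 FPKM, highest). Ednrb-/- trunk replicate 1 did so for Rab27a (2.50 FPKM, lowest) and Krt15 (1.99 FPKM, lowest), Ednrb-/- trunk replicate 2 for Mid1-ps1 (2.72 FPKM, highest), Edn1 (0.774 FPKM, lowest), Hbb-bt (39.4 FPKM, highest) and Hba-a1 (231 FPKM, highest), and Ednrb-/- trunk replicate 3 for Epha4 (21.6 FPKM, highest), Olig3 (8.56 FPKM, lowest) and Wnt11 (2.43 FPKM, highest). In Ednrb-/- trunk replicate 4 they were Igf2bp1 (36.2 FPKM, highest), Prph (2.68 FPKM, lowest), Msx1 (7.21 FPKM, highest), Gad1 (0.431 FPKM, lowest), Lama1 (9.95 FPKM, highest), Mrc1 (1.86 FPKM, lowest), Nr2f2 (26.5 FPKM, highest) and Lef1 (3.11 FPKM, highest).

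For 32 of these genes the change without Ednrb differed between trunk and caudal region in the interaction test. Each value is the trunk minus the caudal log2 change with its limma adjusted p. The trunk change was the more positive for 21 genes, namely Rgs4 (1.98, p 0.007), Kcnmb2 (1.89, p 0.0032), Myf6 (1.77, p 8.4e-04), Myf5 (1.57, p 4.2e-04), Atoh1 (1.56, p 0.0049), Hmx1 (1.45, p 0.015), Pmel (1.07, p 0.0055), Nfia (1.05, p 0.012), Dct (1.04, p 0.013), Gpnmb (0.92, p 0.0082), Stmn3 (0.89, p 0.049), Neurog1 (0.83, p 0.012), Gap43 (0.74, p 0.01), Slit2 (0.59, p 0.0062), Cxcl12 (0.54, p 0.0049), Etv4 (0.53, p 0.0091), Hoxd1 (0.53, p 0.043), Foxp1 (0.52, p 0.0026), Zbtb20 (0.51, p 0.046), Actc1 (0.44, p 0.019) and Erbb3 (0.29, p 0.04). It was the more negative for 11 genes, namely Tbx4 (-2.15, p 0.019), Kera (-1.47, p 0.0062), Hopx (-1.35, p 0.0025), Smoc2 (-1.27, p 0.014), Robo2 (-0.98, p 0.0025), Npy (-0.92, p 0.027), Ogn (-0.92, p 0.029), Tnmd (-0.73, p 0.028), Krt18 (-0.70, p 0.045), Lbx1 (-0.63, p 0.05) and Odc1 (-0.40, p 0.026). At a pseudocount of 0.1 in place of 0.5, 8 of the 32 were no longer called (Ogn, Npy, Kera, Pmel, Gpnmb, Lbx1, Tnmd and Krt18), and with voom on whole reads 8 (the first 7 of these and Tbx4). The caudal mean went from 0.517 to 0.0254 FPKM for Npy and from 0.0656 to 0.00614 FPKM for Kera, levels near or under the pseudocount, where a change on this scale is understated. The same holds in the trunk for Pmel (0.649 to 0.132 FPKM), Dct (0.476 to 0.196 FPKM) and Gpnmb (0.190 to 0.0158 FPKM).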

How the results depend on the processing

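The number of genes called in the trunk was 3355 to 5242 over the alternatives to filter, pseudocount, scaling, spread, test, weights, sex term and libraries, within 1.5 times of 4321, and 187 with a 2-fold minimum. Leaving out 1 library gave 3355 to 4511. With the replicate block 4349 genes were called, 4071 of them shared with the fit without it. Pairing of WT with Ednrb-/- trunk libraries by number was not supported, and pairing of trunk with caudal libraries was not tested. In WT replicate 4 Xist and Ddx3y were at 147.8 and 0.1215 FPKM in the trunk but 0.8187 and 18.29 FPKM in the caudal region. In Ednrb-/- replicate 2 they were at 135.4 and 0.977 FPKM and at 0.2507 and 17.36 FPKM. At these numbers trunk and caudal libraries thus differed in sex-linked RNA, and at the other numbers no such swap was seen. The count of genes whose trunk and caudal changes differed, 1163, was 571 with no filter, 121 with a 2-fold minimum, and 585 to 1488 without 1 library; the cause was not tested, but the unfiltered fit adjusts over 37417 genes. With the replicate block it was 1128. Of the 161 genes named in the text under the rule for named genes, 143 were called in the trunk. Of these, 138 kept their call under every alternative that tested them, and Dct, Gpnmb, Nfic, Hbb-bh1 and Mid1-ps1 lost it under at least 1. The filter at 1 FPKM left some low genes untested, Runx3 and Tnmd among them. None reversed. Rises were 48.4% of calls, 42.2% with TPM scaling and 37.6% with listed reads as the total, while the median of all genes moved by less than 0.1 (log2). Bulk FPKM near 0.1 or lower rests on few reads, which limits the melanoblast genes most.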
